A study of Homo sapiens with 6 samples.

Results

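ERK pathway feedback and output genes are a set of 10 genes whose transcripts follow the activity of the RAS-RAF-MEK-ERK kinase cascade. The set was given by gene symbol as DUSP4, DUSP5, DUSP6, SPRY2, SPRY4, SPRED1, ETV4, ETV5, EGR1 and PHLDA1, and each was found among the 37887 rows of raw counts, all of them above the low-count filter. RNA-seq was available for 6 libraries of BT-549 cells, an established human triple-negative breast cancer (TNBC) cell line. The sample titles name 3 libraries as control shRNA (shCTL) and 3 as shPBRM1, an shRNA against the PBAF chromatin remodeling subunit PBRM1. The treatment labels give vehicle (DMSO, 0.1% in the design text) for the shCTL libraries and doxycycline (DOX, 500 ng/ml) for the shPBRM1 libraries, and the design text describes all cells as carrying a tet-inducible PBRM1 shRNA vector. The titles and the design text thus differ on the vector of the shCTL cells. By the treatment labels, DOX and PBRM1 silencing cannot be told apart in this comparison. If the shCTL cells carry a control shRNA, the vector differs between the groups as well. The libraries came from cultures of 1 cell line with 1 PBRM1 shRNA, and the time on DOX is not given in the sources used here.

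The cascade carries signals from growth factor receptors through RAS and the kinases RAF, MEK and ERK to the nucleus. Active ERK switches on transcription factors and, with them, a group of brakes on the pathway itself. The brakes include dual-specificity phosphatases, which dephosphorylate ERK, and the Sprouty and SPRED proteins, which act near the receptor and RAS. Because the brakes are transcribed when ERK is active, their mRNA levels are widely read as a measure of pathway output in tumor cells. An mRNA level is not a measurement of ERK phosphorylation, which these data do not include.

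Total counts were between 36429395 and 65096297 per library, at which 3 counts correspond to 0.0471 to 0.0804 CPM (TMM-normalized CPM, counts scaled to a common library size). PBRM1, whose mean is given here like other means as mean ± SD over 3 libraries (n = 3), fell from 158 ± 2.30 to 41.9 ± 1.22 CPM, in the direction of the titles. ESR1 had between 0 and 2 counts in any library, PGR had at most 12 counts, and ERBB2 was at 49.6 to 52.4 CPM. Of 4 mesenchymal markers, FN1 was at 544 to 559.8 CPM in shCTL against 208 to 229 CPM in shPBRM1 and ZEB1 at 193 to 204 CPM against 129.8 to 139 CPM. VIM, at 602 to 629.8 CPM against 756 to 781 CPM, and CDH2, at 247 to 260.0 CPM against 352 to 374 CPM, lay the other way, so that the sum of the list, 1600 to 1654 CPM against 1479 to 1506 CPM, combines members that lay in opposite directions. The summed level of 5 immune markers was 0.804 to 1.09 CPM and 0.180 to 0.233 CPM. Of the immune markers, CD3E had 0 counts in all libraries. The 4 epithelial markers moved with the groups, and their summed level was 12.3 to 12.5 CPM in shCTL and 73.0 to 81.8 CPM in shPBRM1, through KRT8 and KRT18, whereas CDH1 went from 4.65 to 5.37 CPM down to 1.21 to 1.83 CPM and EPCAM had at most 8 counts. The part of the epithelial and mesenchymal markers in the values below was not tested. The 3 endothelial markers summed to no more than 0.496 CPM. The share of mitochondrial transcripts was between 3.01% and 4.05%.

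PBRM1 silencing with DOX was accompanied by lower levels of 9 of the 10 genes and higher levels of 0, at an adjusted p under 0.05 (edgeR's quasi-likelihood test, Benjamini-Hochberg adjustment over 15450 genes). Over all genes tested, 33.2% were lower and 31.5% were higher by the same rule. At an unadjusted p under 0.05 there was 1 higher gene, SPRED1, and DESeq2 called 0 higher. With a fold change over 2 in addition, 4 of the 10 genes were lower (EGR1, DUSP4, DUSP5 and DUSP6) against 9.68% of all genes tested, and 0 were higher against 2.87%. The CPM values of the groups did not overlap for any of the 10 genes, which was also the case for 68.3% of the genes tested. The 10 genes had a median of -0.88 on the log2 fold change scale, beside -0.0080 over all genes tested. The decreases ran from 21.8% of the control level for EGR1 to 75.6% for SPRY4. Cells that express a gene at a lower level and fewer cells that express it cannot be told apart in bulk RNA.

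**Figure D1:**
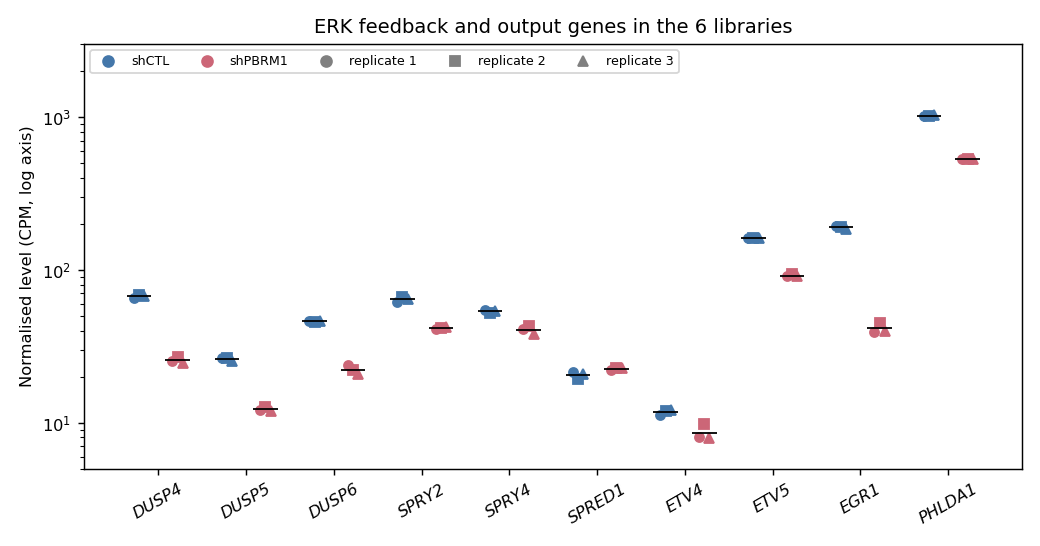
Normalized level of each of the 10 genes in the 6 libraries, in CPM on a log axis, with blue symbols for shCTL, red symbols for shPBRM1, symbol shapes for the replicate numbers and a black line at each group mean. The red symbols lie below the blue ones for 9 genes and slightly above them for SPRED1.

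The phosphatase genes DUSP4, DUSP5 and DUSP6 had the largest decreases among the 6 inhibitors of the 10 genes. DUSP4, a nuclear MAP kinase phosphatase on chromosome 8 from 29333064 to 29350668 (GRCh38, GENCODE v29), was at 64.9, 68.5 and 67.8 CPM in the control libraries (shCTL 1, 2 and 3, the order used throughout), and at 25.5, 26.7 and 24.5 CPM after silencing (shPBRM1 1, 2 and 3). All 3 shPBRM1 libraries were thus far below the lowest shCTL library. This was a log2 fold change of -1.40 (SE 0.043, adjusted p = 1.86e-17) and left 38.1% of the control level.

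DUSP5 encodes an inducible nuclear phosphatase with high selectivity for ERK and lies on chromosome 10 from 110497838 to 110511544. It measured 26.4, 26.4 and 25.4 CPM in controls, compared with 12.1, 12.7 and 11.9 CPM in silenced cells, with a spread far smaller than the distance between the groups. DUSP5 thus had a log2 fold change of -1.09 (SE 0.034, adjusted p = 5.72e-13). DUSP6 encodes the cytoplasmic counterpart, which also dephosphorylates ERK selectively, and lies on chromosome 12 from 89347232 to 89353271. Its levels were 46.4, 45.9 and 46.5 CPM in shCTL and 23.7, 22.1 and 20.9 CPM in shPBRM1 cells. The shCTL values agreed closely and the shPBRM1 values were more scattered, with coefficients of variation of 0.784% and 6.22%. For DUSP6 the log2 fold change was -1.06 (SE 0.052, adjusted p = 6.55e-14). The 95% intervals of DUSP5, from -1.23 to -0.96, and of DUSP6, from -1.17 to -0.94, include a fold change of 2, so that their place past that minimum rests on the point estimate. Tested directly against a fold change of 2 with glmTreat, DUSP4 (adjusted p = 5.14e-08) and EGR1 (adjusted p = 5.84e-18) passed, whereas DUSP5 (adjusted p = 0.273) and DUSP6 (adjusted p = 0.559) did not.

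SPRY2 and SPRY4, of the Sprouty family, had smaller decreases. SPRY2, a membrane-associated inhibitor of receptor tyrosine kinase signaling to RAS, lies on chromosome 13 from 80335976 to 80340951. It was at 61.8, 66.1 and 63.9 CPM in shCTL and at 40.8, 41.9 and 42.2 CPM in shPBRM1 cells, for a log2 fold change of -0.62 (SE 0.032, adjusted p = 8.09e-12). SPRY4, of the same family, lies on chromosome 5 from 142310427 to 142326455. It was at 54.6, 52.5 and 53.9 CPM in shCTL and at 40.8, 43.0 and 38.0 CPM in shPBRM1 cells, for a log2 fold change of -0.41 (SE 0.054, adjusted p = 9.61e-08). Both genes were lower in every shPBRM1 library than in any shCTL library, at 65.1% and 75.6% of the control level. An antisense gene, SPRY4-AS1, overlaps SPRY4 in the annotation and had at most 67 counts in a library, against 1672 or more for SPRY4.

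SPRED1 was the only one of the 10 genes that was not lower. It encodes a protein that brings the RAS-inactivating protein neurofibromin to the membrane, and lies on chromosome 15 from 38252326 to 38357249. SPRED1 was at 21.4, 19.4 and 20.8 CPM in controls, compared with 22.1, 22.6 and 22.8 CPM in silenced cells. The shPBRM1 values were all slightly above the shCTL values, and the closest libraries of the 2 groups differed by less than the range within shCTL. The log2 fold change was 0.13 with a 95% interval from 0.0057 to 0.26 (adjusted p = 0.0626), and the test was not passed. The interval lies above those of the 9 other genes, of which the nearest, that of ETV4, ended at -0.29.

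**Figure D2:**
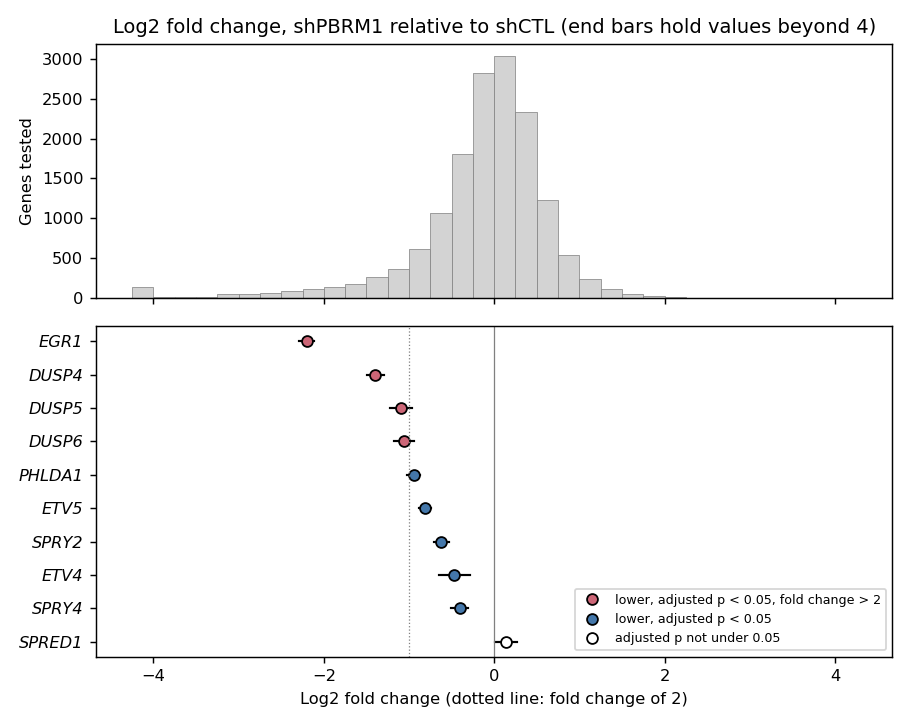
Upper panel, number of genes tested by log2 fold change in bins of 0.25, with values beyond 4 in either direction in the end bars. Lower panel, log2 fold change of the 10 genes with its 95% interval from the quasi-likelihood fit, from -2.20 for EGR1 to 0.13 for SPRED1, with a dotted line at a fold change of 2.

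ETV4 and ETV5 encode ETS transcription factors of the PEA3 family, which are transcribed and activated downstream of ERK. ETV5, on chromosome 3 from 186046308 to 186110318, was at 160.5, 161 and 161 CPM in shCTL and at 90.5, 93.5 and 91.3 CPM in shPBRM1 cells. The spread was small in both groups. ETV5 retained 57.0% of its control level, a log2 fold change of -0.81 (SE 0.014, adjusted p = 7.65e-16). ETV4, on chromosome 17 from 43527844 to 43579620, was expressed at a lower level, with 11.3, 11.9 and 12.2 CPM in shCTL and 8.11, 9.76 and 7.91 CPM in shPBRM1 cells. The shPBRM1 replicate 2 library was the highest of its group and the coefficient of variation, 11.8%, was the largest of the 10 genes in either group. The log2 fold change of ETV4 was -0.47 (SE 0.10, adjusted p = 6.77e-05), and -0.55 without shPBRM1 replicate 2. DHX8 overlaps ETV4 on the opposite strand and had a log2 fold change of -0.089 (adjusted p = 0.0785). ETV5-AS1, which overlaps ETV5, had at most 33 counts in a library.

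EGR1 had the largest decrease of the 10 genes. It encodes a zinc finger transcription factor of the immediate early class, transcribed within minutes of ERK activation through serum response factor (SRF) and its ETS partners such as ELK1, and lies on chromosome 5 from 138465490 to 138469315. It drew 7211, 9211 and 9325 raw counts from the controls, compared with 2350, 1747 and 2545 after silencing. After normalization this was 193, 189 and 185 CPM against 39.1, 44.9 and 39.9 CPM, so that the lowest shCTL library was more than 4 times as high as the highest shPBRM1 library. EGR1 thereby had a log2 fold change of -2.20 (SE 0.064, adjusted p = 5.56e-22). PBRM1 itself had a log2 fold change of -1.91 (SE 0.027), and 3.06% of the genes tested had a value as low as or lower than that of EGR1. Immediate early genes also respond to the handling of cells. Of 15 other immediate early genes tested, 12 were lower and 2 were higher at an adjusted p under 0.05. Over all genes tested, the shares were 33.2% and 31.5%. The part that handling has in the values of the immediate early genes was not tested.

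The sequence before the EGR1 start site is shown because it holds elements of the kind through which SRF is known to act. The RefSeq windows used here (GRCh38.p14, 250 bases before to 50 bases after the start) covered 6 of the 10 genes with 8 windows in all, with 3 for SPRY2 and 1 each for DUSP6, SPRY4, SPRED1, EGR1 and PHLDA1. Capitals mark CArG boxes, the binding element of SRF, in the 250 bases before the EGR1 start (chr5:138465229-138465478, plus strand), which overlap no EGR1 exon in GENCODE v29.
EGR1: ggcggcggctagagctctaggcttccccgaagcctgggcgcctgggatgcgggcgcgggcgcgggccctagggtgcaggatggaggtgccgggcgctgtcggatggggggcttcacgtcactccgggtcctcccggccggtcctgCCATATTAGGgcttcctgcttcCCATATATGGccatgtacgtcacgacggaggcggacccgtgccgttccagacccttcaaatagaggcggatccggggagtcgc
The 2 CArG boxes, CCATATTAGG and CCATATATGG, begin 105 and 83 bases before the start site. EGR1 was the only one of the 6 genes with a CArG box in its windows, and 1.29% of 35116 RefSeq promoter windows held one. SRF mRNA itself went from 49.2 to 67.1 CPM, a log2 fold change of 0.45 with an SE of 0.060 (adjusted p = 1.01e-08).

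The DUSP6 window held a different element. CIC is a repressor that ERK signaling removes from PEA3 family and other target genes, and it binds the octamers TCAATGAA, TCAATGGA, TGAATGAA and TGAATGGA on either strand. DUSP6 had 2 such octamers, shown here in capitals with 6 bases on each side on the minus strand of chromosome 12, the strand of the gene (chr12:89352518-89352525 and chr12:89352493-89352500 for the octamers). Both read TCAATGGA on the opposite strand.
DUSP6 site 1: aatgtaTCCATTGAgacgct
DUSP6 site 2: tttgtaTCCATTGAggagct
They begin 24 bases before the start and at the second base from it. In contrast to EGR1, all 250 bases before this DUSP6 start lie within exons annotated in GENCODE v29. The same holds for the windows of SPRED1 and PHLDA1, and for 170 of the 250 bases for SPRY4. An octamer was present in 3.77% of all windows and in no window of the other 5 genes. ETV4 and ETV5, the PEA3 family genes of the set, had no window and could not be searched. CIC mRNA had a log2 fold change of -0.20 (adjusted p = 0.00121). The ETS element CCGGAAGT, the AP-1 elements TGACTCA and TGAGTCA and the cyclic AMP response element TGACGTCA were found on neither strand in the 8 windows, while 4.14%, 4.95% and 1.85% of all windows held them. Only these exact letters were searched, so that other forms of the elements, shorter ETS sites included, could not be found. These matches are descriptions of the letters and not measurements of binding.

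PHLDA1 encodes a pleckstrin homology-like domain protein and is used with DUSP and SPRY genes in transcript scores of MAPK pathway activity. It lies on chromosome 12 from 76025447 to 76033932. PHLDA1 was the most abundant of the 10 genes, at 1020.3, 1016 and 1026 CPM in controls, compared with 533, 527 and 532 CPM in silenced cells. Its coefficients of variation were 0.513% and 0.549%, so that the distance between the groups was many times their spread. It had a log2 fold change of -0.94 (SE 0.0063, adjusted p = 1.71e-16), or 52.0% of the control level. Antisense genes that the annotation places over DUSP6 and PHLDA1 had no row under those names among the raw counts, so that no level can be given for them.

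Levels were compared between genes per length of exons, as CPM per kilobase. In shCTL cells PHLDA1 was highest at 127 CPM per kilobase, followed by EGR1 at 60.3, ETV5 at 27.7 and SPRY2 at 21.0 CPM per kilobase. DUSP6 and DUSP5, at 9.99 and 9.97 CPM per kilobase, overlapped between libraries and were followed by DUSP4 at 9.25 and SPRY4 at 8.18 CPM per kilobase. ETV4 and SPRED1 were lowest at 3.27 and 2.48 CPM per kilobase. In shPBRM1 cells PHLDA1 remained highest at 65.8 CPM per kilobase, and ETV5 came next at 15.8 CPM per kilobase. EGR1, at 13.2 CPM per kilobase, overlapped with SPRY2 at 13.7 CPM per kilobase. SPRY4, at 6.18 CPM per kilobase, lay above all 3 phosphatase genes, whereas in shCTL cells it lay below them. ETV4 and SPRED1, at 2.38 and 2.72 CPM per kilobase, overlapped at the bottom of the order. The highest and lowest genes were 50.9-fold apart in shCTL and 27.6-fold apart in shPBRM1 cells.

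**Figure D3:**
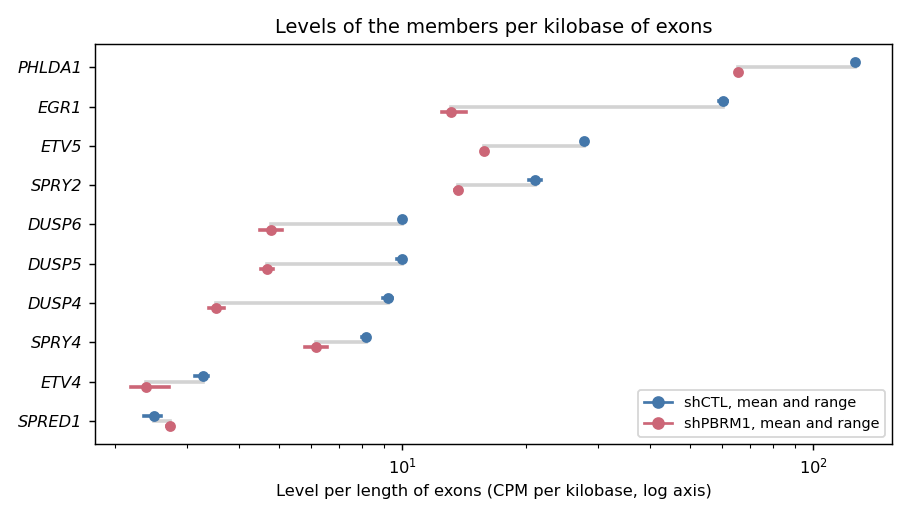
Mean level of each gene per kilobase of exons on a log axis, with bars for the range over 3 libraries, in shCTL (blue) and shPBRM1 (red). EGR1 moves from 60.3 to 13.2 CPM per kilobase, next to SPRY2, and SPRED1 is the only gene whose red point lies to the right of the blue one.

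Related genes were also compared within each library as log2 ratios, which do not depend on the scaling between libraries. For DUSP6 to DUSP4 it was -0.48, -0.58 and -0.54 in controls, compared with -0.11, -0.27 and -0.23 after silencing, a difference of 0.33. DUSP4 thus decreased more than DUSP6 in each pairing of libraries. The log2 ratio of SPRY4 to SPRY2 was -0.18, -0.33 and -0.25 in shCTL and -0.00059, 0.038 and -0.15 in shPBRM1 cells, a difference of 0.21. The log2 ratio of ETV5 to ETV4 was 3.82, 3.76 and 3.72 in shCTL and 3.47, 3.25 and 3.52 in shPBRM1 cells, a difference of -0.35. The groups did not overlap for any of the 3 ratios. By an exact permutation test (two-sided), p was 0.1 for each ratio, which is the smallest p that 3 libraries against 3 allow and is also the value adjusted over the 3 ratios.

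No gene of the cascade itself passed a fold change of 2, against 9.68% lower and 2.87% higher of all genes tested. The 22 core genes run from RAS to ERK and include adaptors, activators of RAS and RAS-inactivating proteins. Of these, 5 were lower, 10 were higher and 7 did not pass the test at an adjusted p under 0.05. Over all genes tested, 33.2% were lower and 31.5% were higher. The number of lower core genes was 3 without shCTL replicate 3. The median over the 22 genes was 0.089 on the log2 fold change scale. MAPK3, which encodes ERK1, had a log2 fold change of 0.10 (adjusted p = 0.150). The largest increases of this list were in NRAS, at a log2 fold change of 0.76 (adjusted p = 3.50e-14), and PTPN11, which encodes the phosphatase SHP2 that promotes RAS activation, with 0.68 (adjusted p = 4.84e-13). These 3 genes were chosen after their values were seen.

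Other genes listed under ERK feedback and output were mixed. Of 16 other genes listed under feedback, 8 were lower, 4 were higher and 4 did not pass the test. This compares with 33.2% lower and 31.5% higher over all genes tested. The median log2 fold change of the list was -0.24. ERRFI1, an inducible inhibitor of the EGF receptor, fell from 463 ± 8.64 to 219.9 ± 2.76 CPM, a log2 fold change of -1.07 (SE 0.019, adjusted p = 6.80e-17). PHLDA3, a PH domain protein known to restrain AKT, had a log2 fold change of -1.65 (SE 0.073, adjusted p = 1.43e-13). SPRY3, named after its counts were seen, fell from 79, 86 and 94 counts to 34, 18 and 25 counts (log2 fold change -2.01, adjusted p = 1.28e-07).

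The family relatives of the 6 inhibitors did not move together. Family membership alone does not make a gene a target or a brake of ERK, and neither was tested here. The higher relatives were SPRED2, at a log2 fold change of 0.21 (adjusted p = 0.00178), SPRY1 with 0.20 (adjusted p = 0.00755) and DUSP16 with 0.23 (adjusted p = 3.37e-06). RASA2, a RAS GTPase-activating protein gene of the same list but outside these families, was also higher, with 0.24 (adjusted p = 0.00171). IL17RD, of the same list and likewise outside these families, was lower, at -0.98 (adjusted p = 2.85e-10). SPRED3, at -0.64 (adjusted p = 2.08e-07), DUSP1, at -0.38 (adjusted p = 0.000135), DUSP7, at -0.23 (adjusted p = 0.00258), and DUSP10, at -0.40 (adjusted p = 0.00198), were lower, and DUSP2, DUSP8 and DUSP9 did not pass the test. These genes were named after their values were seen.

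Of 13 other output genes tested among 14 listed, 9 were lower and 4 were higher, with a median log2 fold change of -0.31. The shares over all genes tested were 33.2% and 31.5%. VGF, a neurosecretory protein gene, had a log2 fold change of -1.34 (SE 0.083, adjusted p = 2.13e-16). TFPI2, a serine protease inhibitor gene, rose from 33.8 ± 1.87 to 75.9 ± 2.09 CPM, a log2 fold change of 1.16 (SE 0.051, adjusted p = 2.61e-16). The output genes therefore did not all move in the direction of the 9 lower genes above.

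For the immediate early genes, 15 tested among 17 listed, the median was -0.56 (log2 fold change). NR4A3 and NR4A2, orphan nuclear receptor genes, had log2 fold changes of -1.37 (adjusted p = 9.06e-08) and -1.19 (adjusted p = 2.75e-09). ATF3, a stress-induced transcription factor gene, had a log2 fold change of -1.29 (SE 0.011, adjusted p = 1.34e-16). EGR2, the relative of EGR1, went from 84, 124 and 119 counts to 32, 26 and 30 counts and was named after these values were seen. IER5, an immediate early response gene, rose by a log2 fold change of 1.14 (SE 0.056, adjusted p = 1.58e-14). Against 33.2% lower and 31.5% higher over all genes tested, 4 of 8 ETS factors and cofactors were lower and 3 were higher. Their median log2 fold change was -0.11. ETS2, an ETS factor phosphorylated by ERK, was the only one of these past a fold change of 2, from 76.5 ± 1.63 to 25.7 ± 1.03 CPM, a log2 fold change of -1.57 (SE 0.037, adjusted p = 6.74e-19).

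**Figure D4:**
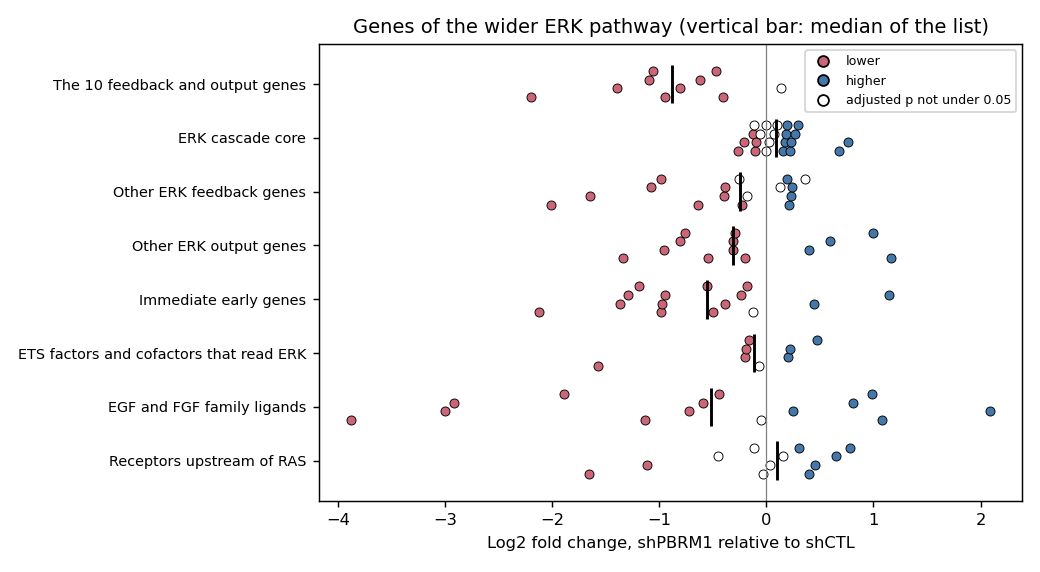
Log2 fold changes of the genes tested in each list of the wider ERK pathway, with red points for genes lower and blue points for genes higher at an adjusted p under 0.05, white points for the others and a vertical bar at the median. The median runs from -0.88 for the 10 feedback and output genes to 0.096 for the receptors upstream of RAS.

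Ligands and receptors upstream of RAS were described in the same way. Of 14 EGF, FGF, HGF and PDGF family ligands tested among 18 listed, 8 were lower and 5 were higher, with a median log2 fold change of -0.52. The shares over all genes tested were 33.2% lower and 31.5% higher. AREG, which encodes the EGF receptor ligand amphiregulin, fell from 4.31 ± 0.352 to 0.557 ± 0.129 CPM, a log2 fold change of -2.91 (SE 0.20, adjusted p = 2.32e-12). HBEGF, a ligand of the same receptor, rose from 17.8 ± 1.37 to 37.8 ± 0.911 CPM, a log2 fold change of 1.08 (SE 0.067, adjusted p = 2.92e-13). These ligands of the same receptor thus moved in opposite directions. Of the ligands past a fold change of 2, EGF, EREG, BTC, PDGFA and NRG2 had means under 100 counts and were named after their values were seen. EREG had 26, 34 and 22 counts in shCTL and 6, 2 and 4 counts in shPBRM1 libraries, and BTC had 31, 42 and 70 counts and 2, 4 and 5 counts.

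Of 12 receptors tested among 13 listed, 2 were lower, 5 were higher and 5 did not pass the test, with a median log2 fold change of 0.096. Over all genes tested, 33.2% were lower and 31.5% were higher. The lower receptors were PDGFRA and PDGFRB, with no more than 139 and 36 counts in a library. EGFR, the receptor of AREG and HBEGF, went from 617 ± 16.5 to 760 ± 18.2 CPM, a log2 fold change of 0.30 (adjusted p = 3.23e-07). MET, the receptor of hepatocyte growth factor, had a log2 fold change of 0.78 (adjusted p = 8.78e-15). All 4 receptors were named after their values were seen.

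No call of the 10 genes changed when any 1 library was left out. The shPBRM1 replicate 2 library, the shallowest of its group, was the highest of the shPBRM1 libraries for 6 of the 10 genes and the lowest for 1. When single libraries were left out, the log2 fold change stayed between -2.25 and -2.16 for EGR1, between -1.10 and -1.01 for DUSP6 and between -0.55 and -0.41 for ETV4. That of SPRED1 stayed between 0.093 and 0.16, with adjusted p-values up to 0.265.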

How the data were processed

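The files deposited by the authors hold raw gene counts, by symbol, of 6 RNA-seq libraries (poly(A) RNA, stranded kit). The submitters' processing notes name CASAVA 1.8.2, STAR 2.7.9a, featureCounts, DESeq2 1.24.0 and GRCh38.p7. The annotation and the strand setting of the counting are not given in the sources used here, so that a gene and an overlapping antisense gene could share reads. Sample titles gave the group and the replicate number. The 3 control columns carry the cell line and a pair of numbers but no shRNA, and were assigned to the control samples because they lack shPBRM1 and end in the replicate number, which leaves their identity inferred. In all, 14 rows carry dates in place of symbols and were not named.

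The main test was that of edgeR 4.0.16 under R 4.3.3 (TMM, filterByExpr, quasi-likelihood F-test, Benjamini-Hochberg adjustment over 15450 genes), with all 6 libraries and no covariate. SEs were computed from replicate log2 CPM values (prior count 2), 95% intervals of log2 fold changes from the quasi-likelihood fit, and exact permutation tests were two-sided. The adjusted p-values come from the quasi-likelihood fit and not from the SEs. An SE from 3 libraries per group can be too small where these happen to lie close together. p-values measure the spread between cultures of 1 line. Libraries of a group differed by more than sampling noise (chi-square per degree of freedom 4.92 to 24.9), and the floor of 3 counts covers counting error only. Libraries with the same replicate number in their titles deviated together, with correlations across 5622 genes, which are not independent replicates, of 0.734, 0.593 and 0.419 for numbers 1, 2 and 3, so that the number was also fitted as a block. Unlike numbers gave -0.671 to 0.464, the highest for shCTL 2 with shPBRM1 3, so that this last library did not correlate best with its own number. Deviations were taken from the mean of the libraries of a group. The correlations therefore depend on each other, and some negative values are built in. Exon lengths and positions are those of GENCODE v29 (GRCh38). Promoter windows are those of RefSeq on GRCh38.p14.

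The members and lists were chosen with earlier results of these data known. Named genes are the 10 members, PBRM1 and, from each list, up to 6 genes with an adjusted p under 0.05, a fold change over 2 and a mean of at least 100 counts. Others are said to have been named later, apart from SRF and CIC, named for their motifs, and genes that overlap a member. The tests were checked on simulated counts. Alternatives were DESeq2 1.42.0, RLE normalization, scaling to library size, omission of the filter, a stricter filter (mean of 50 counts or more), blocking on the replicate number, leaving out each library, glmTreat, an adjusted p under 0.001 and the longest transcript as gene length.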

Additional observations from a re-analysis of the deposited data

How the results depend on the processing

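The number of lower members was 9 under all 13 alternatives, and 0 were higher. With a fold change over 2 it was 4 under 13 of 14 alternatives, replicate block included (4), and 2 when glmTreat tested against that fold change, since DUSP5 and DUSP6 lie close to it. The log2 fold change of EGR1 was -2.20 and that of SPRED1 0.13 (adjusted p = 0.0528) with the replicate block, which changed no call of a member. SPRED1 passed the threshold under none of 12 alternatives, where its adjusted p was 0.0528 to 0.265. Among the wider lists, lower core genes numbered 3 instead of 5 with DESeq2, and between 3 and 5 with a library left out, and the cause was not tested. A mean of at least 50 counts left 5 instead of 8 lower ligands and 1 instead of 2 lower receptors, since fewer genes were tested. With the longest transcript as length, DUSP4 came to 12.1 CPM per kilobase in shCTL, above DUSP6 at 10.5 and DUSP5 at 10.2, so that the order of these genes depends on the length used. The levels in shPBRM1 cells were computed per total exon length only. The overlaps there of EGR1 with SPRY2 and of ETV4 with SPRED1 may likewise depend on the length. Leave-one-out values of the 3 ratios, chosen after seeing the data, kept their direction. No test of a single outlying library was made in groups of 3.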
